A study of Caenorhabditis elegans with 2 samples.

Results

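The basement membrane components described here are 10 genes of Caenorhabditis elegans whose proteins form or line the basement membranes. They were taken by WormBase symbol from the 46748 gene identifiers of the deposited count table, and all 10 were present. Collagen IV is represented by emb-9 and let-2, laminin by epi-1, lam-3, lam-1 and lam-2, nidogen by nid-1, perlecan by unc-52, collagen XVIII by cle-1 and SPARC, a collagen-binding matrix protein, by ost-1. RNA came from whole wild-type hermaphrodites aged 5 days on heat-inactivated Escherichia coli OP50, the usual laboratory food bacterium. The labels give the strain only as wild type, with N2 in the sample names, and do not say whether the age counts from hatching or from adulthood. Both libraries belong to this 1 group, so the study's labels imply no contrast between conditions. Nothing in the labels says that the 2 libraries came from separate cultures, so their spread may be technical.

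A basement membrane is a thin sheet of matrix that covers the muscles, the gonad, the pharynx, the intestine and the epidermis. Laminin, a trimer of an alpha, a beta and a gamma chain, starts the sheet by binding cell surface receptors, and collagen IV, a triple helix, gives it tensile strength. Nidogen and perlecan bind these networks. In C. elegans much of the collagen IV is made by body wall muscle and somatic gonad cells and then deposited on other tissues, so transcripts of a whole animal do not show where the protein sits. In whole animals, fewer cells of a type and less RNA per cell cannot be told apart.

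Replicate 1 held 28164638 counts and replicate 2 held 31271070 counts. All 10 genes had at least 10 counts in both libraries, as did 62.5% of 19641 protein-coding genes. Over the 14397 genes with 10 or more counts in all, the libraries differed beyond sampling noise (a chi-square of 8.82 for each degree of freedom). That sum includes the ribosomal RNA gene rrn-3.1, with 688425 and 496006 counts in replicates 1 and 2, so it is not the spread of a typical gene. The marker lists of the tissues of a whole hermaphrodite, namely body wall muscle (8 of 8 genes), intestine (5 of 5), epidermis (5 of 5), neurons (6 of 6), pharyngeal muscle (4 of 4), coelomocytes (2 of 2), the gonad sheath and distal tip (5 of 5) and the germline (5 of 5), were all detected, whereas 1 of 4 sperm markers was, spe-9 with 18 and 13 counts. Germline markers had the highest median, 460 RPKM in replicate 1 and 461 RPKM in replicate 2, and body wall muscle markers had medians of 58.4 and 54 RPKM. RPKM here is the count divided by the column total and by the union of annotated exons, scaled to reads per kilobase and per 1000000 counts. Values are the mean ± SD of 2 libraries (n = 2), and intervals are 95% counting intervals.

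Together the 10 genes took 0.0912% ± 0.0084 of all counts (n = 2), with 0.0972% in replicate 1 (95% Wilson interval 0.096 to 0.0983) and 0.0853% in replicate 2 (0.0843 to 0.0863). Collagen IV supplied 46.3% and 45.7% of these counts in replicates 1 and 2, and laminin supplied 25% and 24.4%. On the scale per exon length, which compares transcript levels rather than reads, SPARC held 37.7% and 39.8% of the summed RPKM of the 10 genes and collagen IV 34.6% and 33%. Summed by protein, collagen IV and laminin thus drew the most reads, while the short ost-1 had the highest level. Of the single laminin genes only lam-1 drew more reads than ost-1, at 3409 and 3234 against 2773 and 2953 counts.

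Per exon length the order of mean levels was ost-1, let-2, emb-9, lam-1, nid-1, lam-2, cle-1, epi-1, unc-52 and lam-3. From ost-1 at 83.6 RPKM to lam-3 at 1.75 RPKM the levels spanned the upper and lower part of the transcriptome: 87.7% of detected protein-coding genes lay below ost-1 and 24.9% below lam-3. Their median was 11.6 RPKM, beside 11.5 RPKM for all 12268 detected protein-coding genes and 1.28 RPKM for all protein-coding genes, and 5 of the 10 lay above 11.5 RPKM. Neighbours in this order had library values that did not overlap, except epi-1 and unc-52. Neighbours were not tested against each other.

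**Figure D1:**
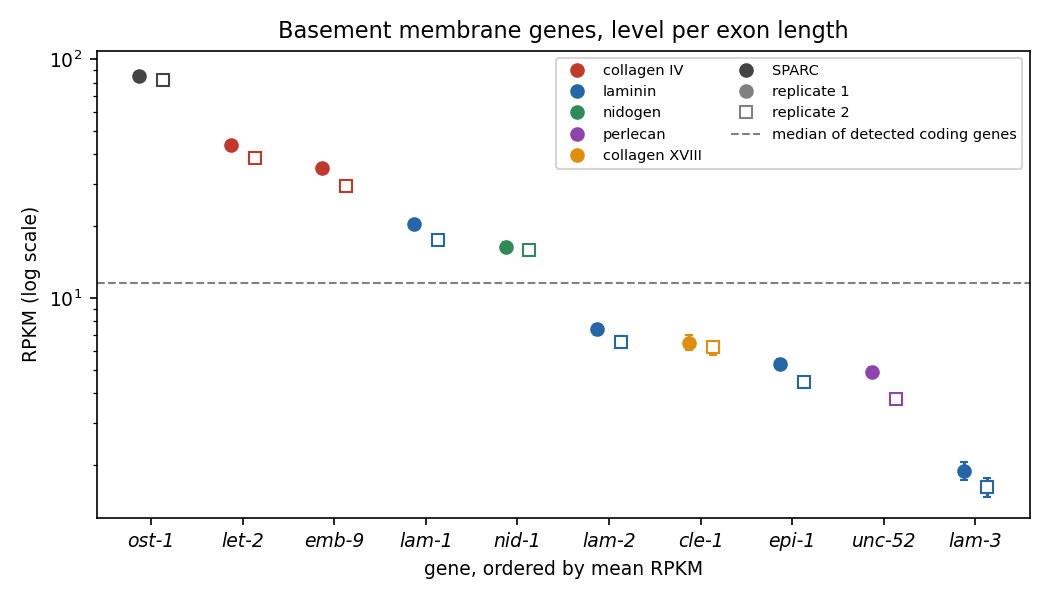
RPKM (log axis) of each gene in replicate 1 (filled circles) and replicate 2 (open squares), with 95% exact Poisson intervals that are mostly smaller than the points; the dashed line is the median of detected protein-coding genes, 11.5 RPKM. ost-1, let-2, emb-9, lam-1 and nid-1 lie above the line in both libraries and the other 5 below it, and replicate 2 is the lower point for every gene.

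Collagen IV transcripts were the most abundant of the network-forming chains. The gene let-2 (WBGene00002280, chromosome X, 16380597 to 16389340, minus strand, WBcel235), which encodes the alpha-2 chain, had 7156 and 7030 counts, or 43.6 and 38.6 RPKM, in replicates 1 and 2. The gene emb-9 (WBGene00001263, chromosome III, 9336881 to 9344447, minus strand), which encodes the alpha-1 chain, had 5510 and 5153 counts, or 34.9 and 29.4 RPKM. In both libraries let-2 was the higher of the pair, and the values of the 2 genes did not overlap. Their annotated proteins are of the same length, 1759 residues in the longest form.

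The collagen IV trimer holds more alpha-1 than alpha-2 chains, but the transcripts stood the other way round. Per exon length the ratio of emb-9 to let-2 was 0.799 in replicate 1 (95% exact interval 0.772 to 0.828) and 0.761 in replicate 2 (0.734 to 0.789), with a mean of 0.78 ± 0.0272 (n = 2). The intervals of both libraries lay below equality. These are transcript levels, and the amount of either chain was not measured.

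Laminin chains were unequal, with the beta chain well above the others. The gene lam-1 (WBGene00002247, chromosome IV, 5173332 to 5183746, plus strand), encoding the only beta chain of the animal, had 3409 and 3234 counts, or 20.5 and 17.5 RPKM. The gene lam-2 (WBGene00016913, chromosome X, 7143846 to 7151239, minus strand), encoding the gamma chain, had 1258 and 1240 counts, or 7.39 and 6.56 RPKM. Of the alpha chains, epi-1 (WBGene00001328, chromosome IV, 10666823 to 10679291, plus strand) had 1674 and 1558 counts, or 5.28 and 4.43 RPKM. The other alpha chain gene, lam-3 (WBGene00002248, chromosome I, 10608466 to 10621435, plus strand), had 503 and 477 counts, or 1.89 and 1.61 RPKM. The beta chain was thus high in both libraries and lam-3 low in both, and no values of these 4 genes overlapped.

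Every laminin trimer takes an alpha, a beta and a gamma chain. Added together, epi-1 and lam-3 came to 0.97 of the gamma chain lam-2 in replicate 1 and 0.921 in replicate 2, a mean of 0.946 ± 0.0351 (n = 2). Against the beta chain lam-1 the same sum was 0.35 and 0.345, a mean of 0.347 ± 0.00347, and lam-2 alone was 0.36 (95% exact interval 0.338 to 0.385) and 0.374 (0.35 to 0.4). Alpha and gamma transcripts were therefore close to each other per exon length, and beta transcripts were 2.72 ± 0.0737 times the gamma transcripts. The closeness depends on division by length. By counts epi-1 alone exceeded lam-2, at 1674 and 1558 against 1258 and 1240.

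The alpha chains themselves differed by 2.77 ± 0.0367 times, with epi-1 over lam-3 at 2.8 in replicate 1 (95% exact interval 2.53 to 3.1) and 2.75 in replicate 2 (2.48 to 3.05). EPI-1 is the alpha chain known from muscle, gonad and intestinal surfaces, and LAM-3 is known chiefly from the pharynx and nerves. Summed over chains, collagen IV exceeded laminin by 2.25 ± 0.0128 times per exon length, from 78.5 and 35.1 RPKM in replicate 1 and 68 and 30.1 RPKM in replicate 2. No counting interval was computed for this or the other ratios of summed chains. Their SD over the libraries does not measure counting error.

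Nidogen, the linker of the laminin and collagen IV networks, lay between the beta and the gamma laminin chain. The gene nid-1 (WBGene00003738, chromosome V, 12910107 to 12917221, plus strand) had 2320 and 2501 counts, or 16.4 and 15.9 RPKM. Its ratio to lam-1 was 0.799 in replicate 1 and 0.908 in replicate 2, below equality in both libraries with 95% exact intervals of 0.758 to 0.843 and 0.861 to 0.957. These intervals did not overlap each other and hold counting error only. Its ratio to lam-2 was 2.22 and 2.43.

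Perlecan and collagen XVIII, both proteoglycans in vertebrates, were low per exon length. The gene unc-52 (WBGene00006787, chromosome II, 14647321 to 14684456, minus strand), whose product anchors body wall muscle to the epidermis, had 1966 and 1681 counts, or 4.9 and 3.77 RPKM. These values overlap those of epi-1. It has the most complex gene model of the 10, with 17 annotated transcripts and 48 exon blocks over 14253 bases, and its ratio to emb-9 was 0.14 and 0.128, a mean of 0.134 ± 0.00851 (n = 2). The deposited RPKM correspond to a shorter length for unc-52, 11610 bases in replicate 1. With that length its mean level lay above that of epi-1, so the order of these 2 genes depends on the gene model.

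The gene cle-1 (WBGene00000527, chromosome I, 8705668 to 8724279, minus strand), which encodes the collagen XVIII chain known for its role in axon guidance and at neuromuscular junctions, had 802 and 849 counts, or 6.5 and 6.2 RPKM. These values lay just below those of lam-2, but with the longest transcript as length cle-1 was above it, at a mean of 7.45 RPKM against 6.98 RPKM. Its ratio to emb-9 was 0.187 and 0.211. Of its exon bases 5.71% are shared with genes on the opposite strand, among them cdk-8 with 2643 and 2622 counts. Whether the counting used strand is not stated in the labels, so reads in those 250 bases cannot be assigned to either gene. For let-2, epi-1 and unc-52 the shared bases made up 0.24%, 0.258% and 0.0421% of exon length, with at most 17 counts for any overlapping gene, and the other 6 genes shared no exon bases.

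SPARC transcripts stood highest. The gene ost-1 (WBGene00003893, chromosome IV, 1107396 to 1110872, plus strand), whose secreted product binds collagen IV and calcium, had 2773 and 2953 counts, or 85.4 and 81.9 RPKM. Both values lay above those of all other members, and ost-1 exceeded emb-9 by 2.45 times in replicate 1 (95% exact interval 2.34 to 2.56) and 2.79 times in replicate 2 (2.66 to 2.92). The intervals of the libraries did not overlap and hold counting error only. By reads alone ost-1 was lower than emb-9, at 98.5 and 94.4 CPM (counts scaled to the column total, per 1000000) against 196 and 165 CPM. The order of this pair thus follows from division by length: the ost-1 model has 1153 exon bases and encodes 264 residues, the shortest of the 10.

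Length and level ran in opposite directions among the 10 genes, with a Spearman correlation of -0.70 (n = 10 genes that share both libraries). Across all 12268 detected protein-coding genes it was -0.05. Set against genes of like exon length, ost-1 lay above 88.9% of the 5346 other detected genes of 1000 to 2000 bases. In the class of 4500 to 6000 bases, let-2 lay above 73.3%, emb-9 above 66.4%, lam-1 above 50.3% and nid-1 above 48.3% of 292 other genes. Among genes over 9000 bases, whose median was 5.08 RPKM, epi-1 lay above 49.3%, unc-52 above 46.3% and lam-3 above 28.4% of 67 other genes. The position of lam-2, above 30.4% of 148 genes of 6000 to 9000 bases, and of cle-1, above 36.4% of 1027 genes of 3000 to 4500 bases, was thus lower for their length than that of the longer epi-1 and unc-52.

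**Figure D2:**
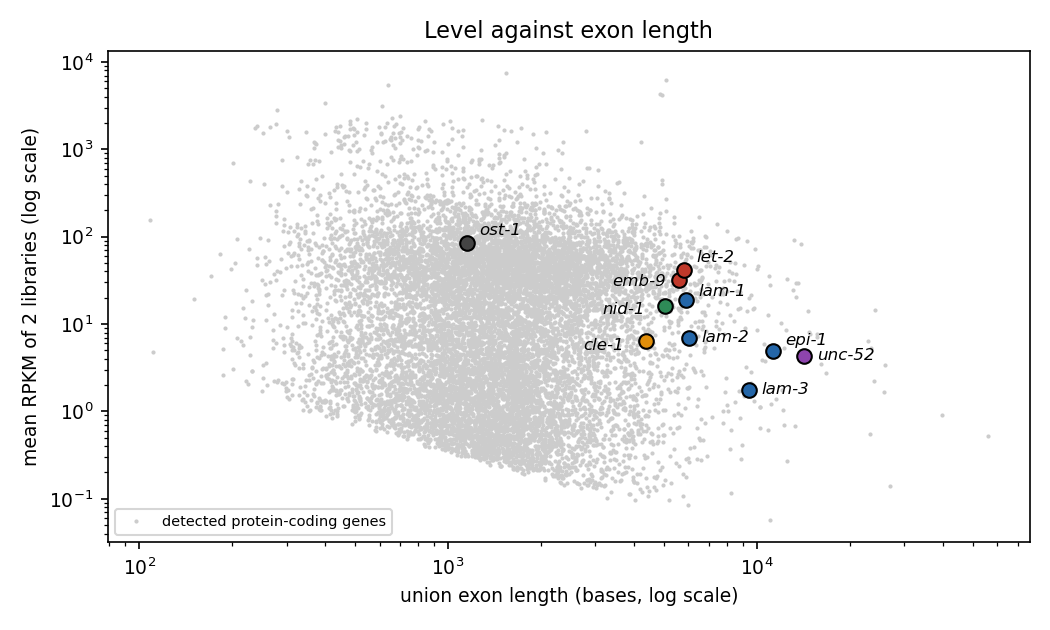
Mean RPKM of the 2 libraries against union exon length, both on log axes, for detected protein-coding genes (grey) and the 10 basement membrane genes (coloured by protein: SPARC dark grey, collagen IV red, laminin blue, nidogen green, perlecan purple, collagen XVIII orange). ost-1 at 1153 bases stands apart at upper left, and lam-3, epi-1 and unc-52 form the long, low end.

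Between the libraries no member differed by as much as 2-fold, where 4.13% of 14397 genes with 10 or more counts in the sum did. All 10 had lower CPM in replicate 2, a direction seen in 44.4% of the genes tested and in 39.9% of the 5370 genes within the members' range of counts (980 to 14186 in the sum). In that range the log2 ratio had an SD of 0.12, small beside a 2-fold difference. Log2 ratios of replicate 2 over replicate 1 ran from -0.38 to -0.04 with a median of -0.20, while the median of all tested genes was 0.02. These ratios set 1 library against the other within the group and say nothing of conditions.

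The gap was widest for unc-52, at 69.8 and 53.8 CPM, a log2 ratio of -0.38 (95% exact interval -0.47 to -0.28). By column totals it was the only member at least 1.2-fold lower in replicate 2, and with DESeq2 size factors epi-1 was a further one. That size by column totals was reached by 12.7% of all tested genes and by 0.577% of genes in the members' range of counts. The collagen IV genes emb-9 (196 and 165 CPM, log2 ratio -0.25, interval -0.30 to -0.19) and let-2 (254 and 225 CPM, -0.18, -0.22 to -0.13) were next to the laminin genes, whose ratios were -0.25 for epi-1, -0.23 for lam-1, -0.23 for lam-3 and -0.17 for lam-2. For these 7 genes the interval of the ratio excluded equality, as it did in the same direction for 8.04% of all tested genes and 9.78% of genes in the members' range of counts. Those intervals hold counting error only. For nid-1 (-0.04, -0.12 to 0.04), ost-1 (-0.06, -0.14 to 0.02) and cle-1 (-0.07, -0.21 to 0.07) they included equality.

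Long genes in general were lower in replicate 2. Within the members' range of counts, the median log2 ratio of protein-coding genes was 0.10 under 1000 bases of exon (1202 genes), -0.04 from 4500 to 6000 bases (147 genes) and -0.15 over 9000 bases, where all 37 genes were lower. The share of genes lower in replicate 2 was 16.8% under 1000 bases and 65.5% from 3000 to 4500 bases. It was 74.1% from 4500 to 6000 bases, 87.7% from 6000 to 9000 bases and 100% over 9000 bases. Relative to the median of its own length class, unc-52 was at -0.23, emb-9 at -0.20, lam-1 at -0.18 and let-2 at -0.13. Of the other genes of their class, 1 of 36 had a lower ratio than unc-52, 5 of 146 a lower one than emb-9, 6 of 146 than lam-1 and 12 of 146 than let-2. The values of epi-1 (-0.11), lam-2 (-0.08), lam-3 (-0.08), ost-1 (-0.09) and cle-1 (-0.05) were nearer their class medians, and nid-1 was at its own (0.00). The median over the 10 was -0.10 after this adjustment, which was chosen after seeing the data.

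Markers of several tissues were lower in replicate 2 as well. For body wall muscle 7 of 8 were lower, with a median log2 ratio of -0.21 and a summed level of 1572 and 1426 CPM in replicates 1 and 2. Pharyngeal muscle markers had 3 of 4 lower (median -0.18, 105 and 92.5 summed CPM), epidermis markers 4 of 5 (median -0.14, 62.5 and 56.9 summed CPM) and intestine markers 3 of 5 (median -0.14, 159 and 150 summed CPM). Medians lay nearer 0 for markers of neurons (4 of 6 lower, median -0.03, 270 and 279 summed CPM). The same held for the gonad sheath and distal tip (3 of 5 lower, median -0.01, 117 and 121 summed CPM). It held also for the germline (3 of 5 lower, median 0.00, 5240 and 5131 summed CPM). Both coelomocyte markers were higher in replicate 2 (3.8 and 4.67 summed CPM). Of all tested genes, 44.4% were lower in replicate 2, a share over all exon lengths. For protein-coding genes in the members' range of counts it rose from 16.8% under 1000 bases to 100% over 9000 bases. The part of exon length and of RNA from these tissues in the library difference of the members was not tested.

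**Figure D3:**
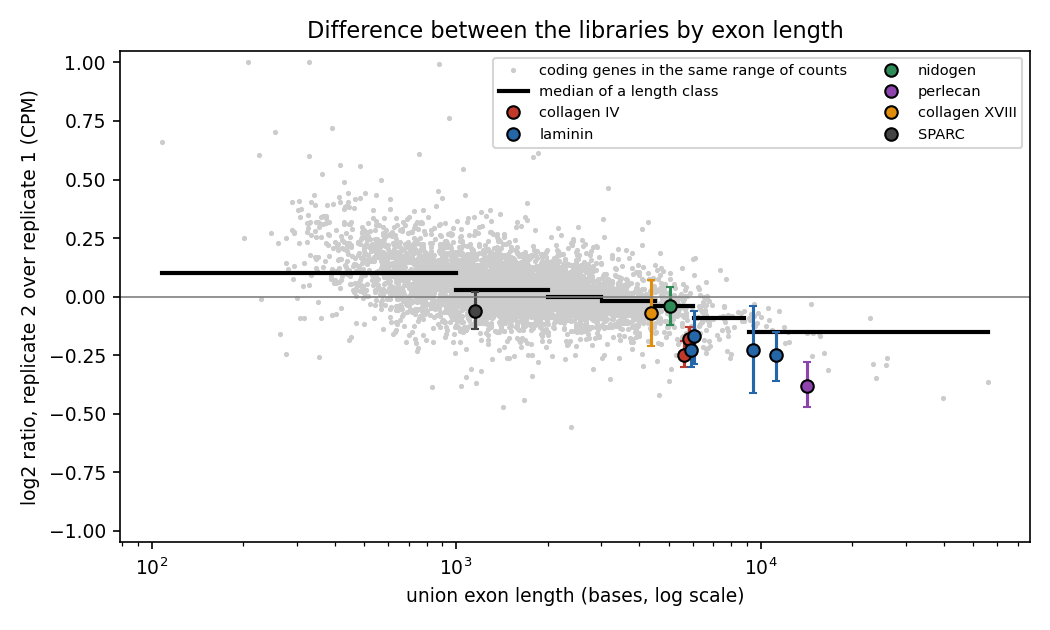
Log2 ratio of CPM, replicate 2 over replicate 1, against union exon length (log axis) for protein-coding genes with 980 to 14186 counts in the sum (grey, values beyond 1 drawn at 1), with medians of length classes as black lines and the 10 basement membrane genes with 95% exact counting intervals. All 10 lie below 0, and unc-52, the longest at 14253 bases, is lowest at -0.38.

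Of 76 other genes in 6 lists related to the basement membrane, 70 were detected. Whole-animal counts do not show in which tissue or for which process these genes were expressed. The share of all tested genes lower in replicate 2, given below, covers all exon lengths. It is not matched to the lengths of the list genes. Transcripts of other matrix and cell surface proteins of or near the basement membrane were mostly less abundant than the 10. Their median was 2.12 RPKM and all 17 were detected. The highest were sdn-1, the syndecan gene (28.2 and 29.3 RPKM), test-1, which encodes a testican-like proteoglycan (23.9 and 21.7 RPKM), and ten-1, the teneurin gene (20.6 and 18.9 RPKM). The lowest were agr-1, the agrin gene (0.517 and 0.526 RPKM), and gpn-1, a glypican gene (0.658 and 0.68 RPKM). In 11 of the 17 the CPM was lower in replicate 2, and none differed by 2-fold. Of all tested genes, 44.4% were lower in replicate 2 and 4.13% differed by 2-fold.

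Receptor transcripts had a median of 5.03 RPKM with 9 of 11 genes detected. The beta integrin gene pat-3 was highest at 92.7 and 86.5 RPKM, followed by unc-40, which encodes the netrin receptor (67.2 and 63.4 RPKM), and dgn-1, the dystroglycan gene (16.4 and 16.2 RPKM). The integrin beta chain pairs with the alpha chains of ina-1 or pat-2, and neither lay above 13.7 ± 1.21 RPKM, the mean of ina-1. The discoidin domain receptor genes ddr-2 (0.729 and 0.675 RPKM) and ddr-1 (1.42 and 1.44 RPKM), which encode collagen receptor kinases, were the lowest detected, and the dystroglycan-related dgn-2 (5 and 5 counts) and dgn-3 (4 and 1 counts) were not detected. In 9 of the 10 genes tested the CPM was lower in replicate 2, beside 44.4% of all tested genes of any exon length.

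Matrix proteases and their inhibitors had the lowest median of the 6 lists, 0.926 RPKM, with 10 of 13 detected. Of the 3 highest, 2 were the metalloprotease inhibitor genes cri-2 (16.2 and 19 RPKM) and timp-1 (10.1 and 13.5 RPKM), and the other was the matrix metalloprotease gene zmp-4 (14.5 and 16 RPKM). The lowest detected were adt-1, an ADAMTS protease gene (0.34 and 0.193 RPKM), and zmp-2 (0.49 and 0.301 RPKM), while adt-3 (18 and 7 counts), zmp-5 (5 and 4 counts) and zmp-6 (4 and 2 counts) were not detected. In 8 of the 11 genes tested the CPM was lower in replicate 2, beside 44.4% of all tested genes. The gene adt-3 was the only one to differ by 2-fold between the libraries, and it rests on few counts. A 2-fold difference was seen in 4.13% of all tested genes.

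Enzymes and carriers that hydroxylate, fold and export collagen had a median of 47.5 RPKM, above the 41.1 RPKM of let-2, with 14 of 15 genes detected. The highest were pdi-2, the disulfide isomerase that is also a subunit of prolyl 4-hydroxylase (230 and 237 RPKM), the COPII coat GTPase gene sar-1 (151 and 148 RPKM) and the COPII gene sec-23 (83.6 and 79.8 RPKM). The lowest detected were the prolyl hydroxylase gene phy-3 (0.942 and 0.556 RPKM) and let-268, which encodes the lysyl hydroxylase needed for collagen IV secretion (2.45 and 2.04 RPKM), and phy-4 was not detected (0 and 1 counts). Most of these proteins also serve other cargo, cuticle collagens and yolk among them.

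Genes of glycosaminoglycan synthesis, which build the sugar chains of proteoglycans, had a median of 37.4 RPKM with 14 of 14 detected. The highest were sqv-4, which makes UDP-glucuronic acid (159 and 163 RPKM), sqv-5, a chondroitin synthase gene (115 and 109 RPKM), and sqv-1, which makes UDP-xylose (87.2 and 81.1 RPKM). The lowest were rib-2 (8 and 8.2 RPKM), a heparan sulfate synthesis gene, and the sulfotransferase gene hst-2 (11.5 and 10.8 RPKM). The 6 genes of the integrin adhesion complex lay close together, from deb-1, the vinculin gene (9.2 and 8.17 RPKM), and pat-4, the integrin-linked kinase gene (9.63 and 9.01 RPKM), to tln-1, the talin gene (15.3 and 14.2 RPKM), pat-6, the parvin gene (14.4 and 18.3 RPKM), and unc-112, the kindlin gene (18.8 and 18 RPKM). No tested gene of these last 3 lists differed by 2-fold between the libraries, and lower CPM in replicate 2 was seen in 8 of 14, 8 of 14 and 5 of 6. Among all tested genes these shares were 4.13% and 44.4%.

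**Figure D4:**
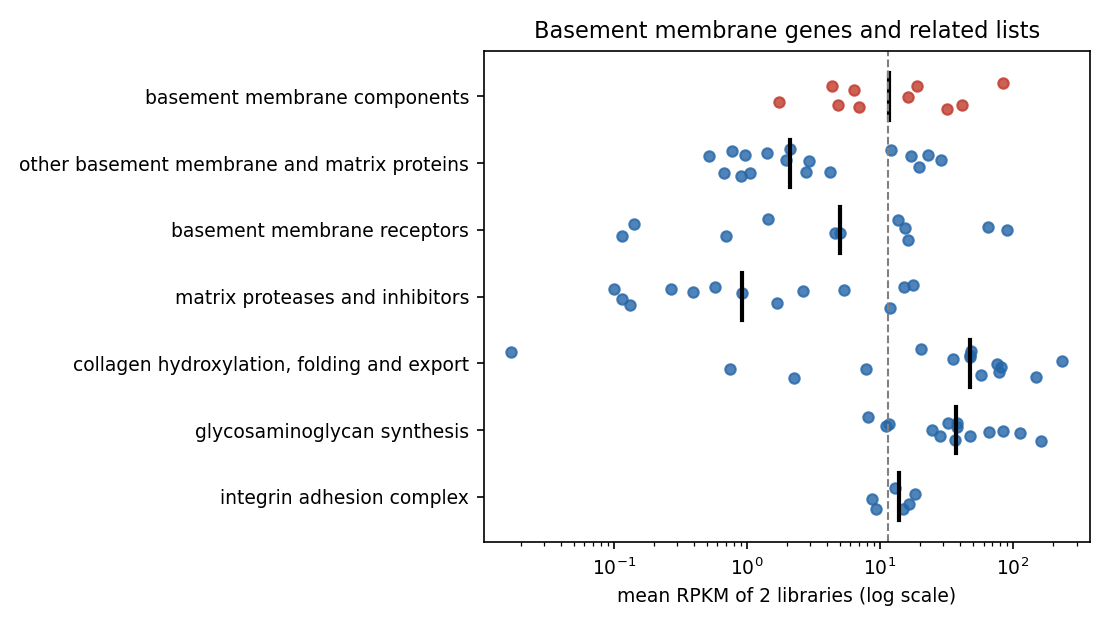
Mean RPKM of the 2 libraries (log axis) for each gene of the basement membrane components (red) and of 6 related lists (blue), with black bars at the median over all members, undetected ones included, and a dashed line at 11.5 RPKM, the median of detected protein-coding genes. Median levels run from 0.926 RPKM for matrix proteases and inhibitors to 47.5 RPKM for collagen hydroxylation, folding and export, and the integrin adhesion complex has the narrowest range, 8.68 to 18.4 RPKM.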

How the data were processed

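RNA of whole animals was sequenced in 2 libraries of 1 group, numbered in accession order. Per the labels, an Illumina mRNA preparation kit was used. Reads were processed with STAR 2.4.1d and featureCounts 1.4.6-p4 on build WBcel235, per the submitters' processing notes. Counting options, strand use and the annotation version were not given in the sources used here. The authors deposited raw counts per gene and RPKM values. The RPKM computation is not described. The values imply a read total that changes with the row in 8 classes, so that the quotient of the 2 libraries' totals runs from 0.787 to 1.27 instead of 0.901, the quotient of the column totals. Levels were therefore computed from the counts, each column's total and union exon lengths of Ensembl release 115 (WBcel235), and deposited RPKM served as an alternative. The floor of 3 counts was 0.107 and 0.0959 CPM. Intervals (95%; Poisson, Clopper-Pearson for ratios, Wilson for shares) cover counting error only. Ratios between libraries used genes with 10 or more counts over both, and the calculation was checked on simulated data. Alternative scalings used edgeR 4.0.16 (TMM) and DESeq2 1.42.0. No p-values were computed, since there is 1 group. Members and lists were chosen with earlier results of these data known. In each list the 3 highest and 2 lowest detected genes and every undetected gene are named. Python 3.11.15 and scipy 1.17.1 were used.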

Additional observations from a re-analysis of the deposited data

How the results depend on the processing

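No paired analysis was possible because there is 1 group of 2 libraries. Leaving out 1 library returns the value of the other. The ranges given for that setting thus repeat the values of each library and do not test stability. The emb-9 to let-2 ratio was 0.688 with RPKM as deposited and 0.751 from CPM without division by length, and 0.761 to 0.799 with either library left out. Without division by length, epi-1 over lam-1 was 0.486, epi-1 over lam-3 was 3.3, collagen IV over laminin was 1.86, unc-52 over emb-9 was 0.342, ost-1 over emb-9 was 0.538 and the median of the 10 was 71.5 CPM. With RPKM as deposited, lam-2 over lam-1 was 0.327, collagen IV over laminin 2.18, unc-52 over emb-9 0.189 and the median 12.4 RPKM. With the longest transcript as length, collagen IV over laminin was 2.27 and unc-52 over emb-9 was 0.153, and with rescaled RPKM unc-52 over emb-9 was 0.165. With either library left out, epi-1 over lam-1 ran from 0.253 to 0.258, lam-2 over lam-1 from 0.36 to 0.374, epi-1 over lam-3 from 2.75 to 2.8, collagen IV over laminin from 2.24 to 2.26, unc-52 over emb-9 from 0.128 to 0.14, ost-1 over emb-9 from 2.45 to 2.79, the median from 11.2 to 11.9 RPKM, the share of counts from 0.0853% to 0.0972% and the list genes detected from 70 to 71. No member differed 2-fold between libraries with column totals, TMM or DESeq2 size factors; at a threshold of 1.2-fold, 1 member did by column totals and 2 with DESeq2 size factors. The median log2 library ratio of the members was -0.21 with TMM or DESeq2 size factors. By CPM without division by length the order was let-2, emb-9, lam-1, ost-1, nid-1, unc-52, epi-1, lam-2, cle-1 and lam-3. The main limits are the length model, the single group, and counts that do not separate transcript forms or tissues. The choice of length sets the order of unc-52 and epi-1 and that of cle-1 and lam-2. The orders of ost-1 and emb-9 and of lam-2 and epi-1 held with every length used. They reversed only without division by length.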
